A study of Homo sapiens with 6 samples.

Results

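Translation initiation and elongation factors, the proteins that bring the ribosome to the start codon of an mRNA and move it along the coding sequence, were examined in K562 cells with and without knockdown of lncRNA-IUR-5. The members were every protein-coding gene whose symbol begins with EIF or EEF and a digit, leaving out the kinases of eIF2 alpha and the enzymes that modify the elongation factors. Of 59 such genes in the RefSeq gene list, 58 had at least 1 of the 109018 rows of the read-count table, out of 19053 genes that could be given a symbol. EIF2S3B had no matched row. The 58 genes occupied 175 rows, since each row is a RefSeq protein accession and isoforms stand apart, and each gene was represented by its row with the most reads over all libraries. The rule for membership uses the symbol and no expression value, although the gene family was picked with earlier results of these data known. One member, EIF1AD, carries the name of a domain it shares with eIF1A and is not an established initiation factor.

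The libraries came from K562, an established BCR-ABL1-positive human leukemia line with erythroid features. Stable lines carried a lentiviral short hairpin RNA, directed either against lncRNA-IUR-5, a transcript of an imatinib-induced lncRNA family (sh-IUR-5, 3 libraries), or against luciferase, which these cells lack (sh-luc, 3 libraries). All 6 libraries therefore share the vector and the selection of a stable line, and no drug treatment is given in the labels for either group. The labels describe 3 independent experiments without saying what was separate between them, so that p-values measure the spread between these libraries, which may be partly technical. The target of the sh-IUR-5 hairpin is shown because it is what sets the groups apart, written 5′ to 3′ with no part capitalised:
sh-IUR-5 target: gctagtatcaggtttaaatag

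In eukaryotic initiation, eIF2 with GTP delivers the initiator tRNA to the small ribosomal subunit, where eIF1, eIF1A, eIF3 and eIF5 join it. The eIF4 factors recognise the mRNA cap (eIF4E), unwind the leader (eIF4A with eIF4B or eIF4H) and bridge to eIF3 (eIF4G), and the 4E-BPs compete with eIF4G for eIF4E until mTOR phosphorylates them. Elongation is carried by eEF1A, which brings aminoacyl-tRNA, by the eEF1B complex, which recharges eEF1A with GTP, and by eEF2, which moves the ribosome along.

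Reads counted on rows numbered 21023739 to 31481109 per library. The deposited RPKM (reads per kilobase of row length and per unit of total reads) is scaled to total reads only. For the values here, RPKM was rescaled by edgeR's TMM factors, which were 0.925 to 0.938 in sh-luc and 1.05 to 1.11 in sh-IUR-5, so that levels and fold changes stand on 1 scale (TMM-scaled RPKM). The 100 rows with the most reads took 29.7 to 31.0% of the sh-luc reads and 27.7 to 28.1% of the sh-IUR-5 reads. All 10 markers of K562 cells were detected, with a summed level of 20213 to 22594 RPKM in sh-luc and 16076 to 16764 RPKM in sh-IUR-5, while none of 4 B and T cell markers reached 1 RPKM and EPCAM was the 1 of 4 fibroblast and epithelial markers that did. The level of lncRNA-IUR-5 itself was not analysed here, since only proteins have rows, so the knockdown is taken from the labels. In bulk RNA a lower share of a transcript cannot be told apart from a higher share of others.

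Most translation factors that differed between the groups were lower in sh-IUR-5 cells, by less than 2-fold in each case. Of the 54 members with a mean of at least 1 RPKM, 22 were lower and 4 were higher by edgeR's quasi-likelihood test (adjusted p under 0.05 over all 38204 rows tested), and 28 did not pass. Those are 40.7% lower and 7.41% higher, where over the most-read rows of all 8873 genes tested 23.5% were lower and 22.4% were higher (45.9% in either direction). Over all rows tested the calls came to 37.3%. The median log2 fold change (sh-IUR-5 over sh-luc) was -0.16 over the members and -0.01 over those 8873 genes, and the members ranged from -0.85 (EIF4EBP3) to 0.59 (EIF4G2). The labels number replicate 1 of both groups apart from replicates 2 and 3, which share a first digit. What that digit stands for is not stated, and it was read here as a series. With a term for that series 30 members were lower and 7 higher, the 22 and the 4 among them. The same term raised the rows called in the whole table from 14256 to 17924 of 38204. Only replicates 2 and 3 repeat a group within a series, and they were the most alike of their group. The smaller p-values with that term rest largely on the spread between them, which may be partly technical. Within the first series, with 1 library a group and no test, 41 of the 54 members were below 0, and within the other 40 were. The 3 libraries of each group did not overlap for 35 members, 27 of them lower and 8 higher, where 54.3% of the 8873 genes did not overlap (27.5% lower and 26.9% higher). None of the members reached 2-fold, a size at which 1.79% of the 8873 genes passed the test.

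**Figure D1:**
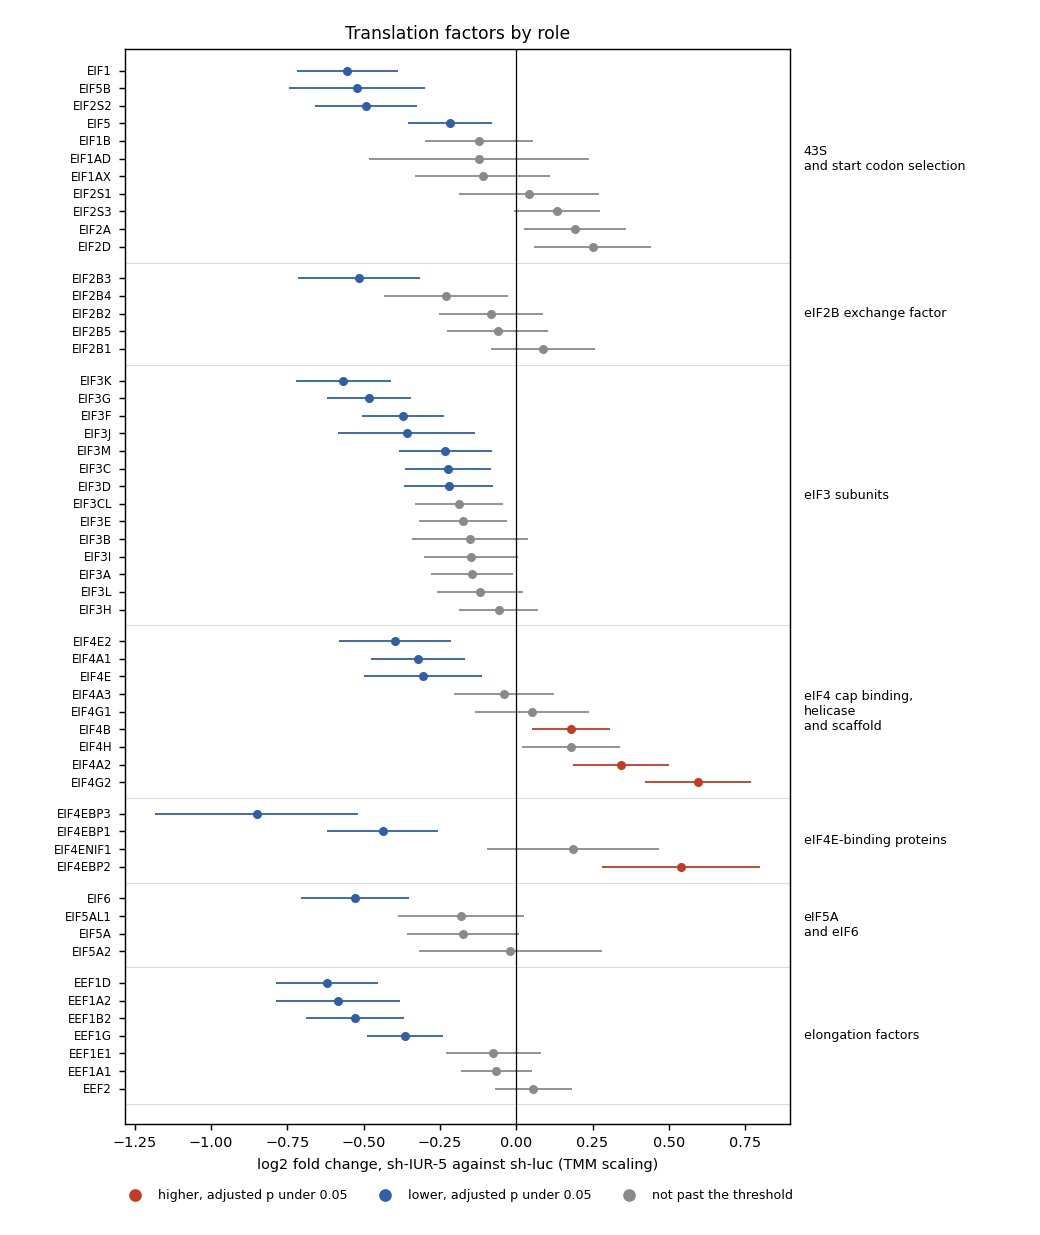
Log2 fold change of each tested translation factor between sh-IUR-5 and sh-luc libraries (3 against 3, TMM scaling), grouped by role, with 95% confidence intervals as bars. Blue points passed edgeR's test as lower and red points as higher; the 14 eIF3 subunits all lie below 0, while the eIF4 group lies on both sides.

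The split between directions depended on how libraries were scaled and on the level filter. Scaling to total reads only, as in the deposited RPKM, moved the median of the 8873 genes from -0.01 to 0.20 and the median of the members from -0.16 to 0.04. Under that scaling 14 members were lower and 14 higher, against 12% and 39.3% of the 8873 genes. The 14 lower members were all among the 22 lower ones: EIF1, EIF2S2, EIF5B, EIF2B3, EIF3F, EIF3G, EIF3K, EIF4EBP1, EIF4EBP3, EIF6, EEF1A2, EEF1B2, EEF1D and EEF1G. The other 8 of the 22 did not pass under it, and the 4 higher members were higher under both scalings, although EIF4B did not pass with DESeq2 size factors (0.17, edgeR adjusted p = 0.0563). A further 10 members, EEF1A1 and EEF2 among them, passed as higher only with total reads, and 41 members had a log2 fold change below 0 with TMM against 23 with total reads. With TMM scaling and a minimum mean of 5 RPKM, 16 of 52 members tested were lower and 9 higher, with a median of -0.06. All further fold changes are with TMM scaling unless stated.

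**Figure D2:**
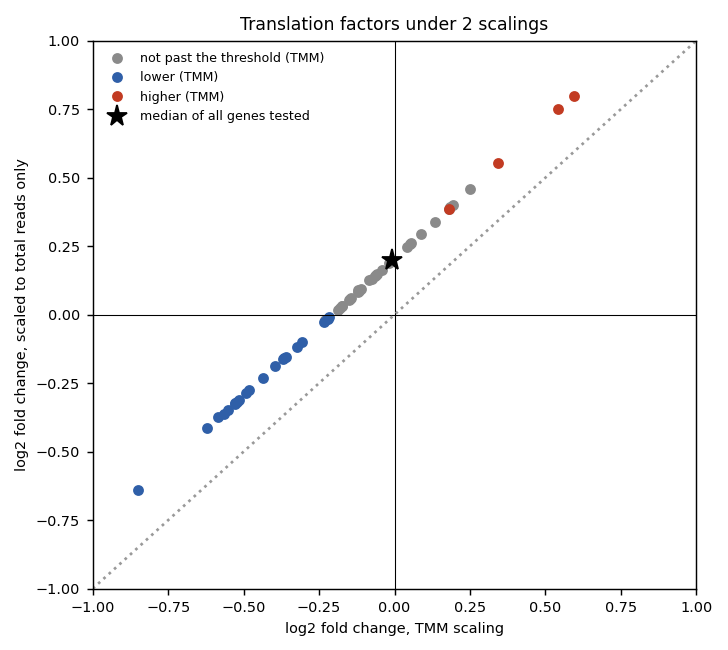
Log2 fold change of each tested translation factor with TMM scaling (horizontal) against scaling to total reads only (vertical), both for sh-IUR-5 over sh-luc, with the dotted line marking equal values. All points are shifted upward by about the same amount as the star, the median of the 8873 genes tested, at -0.01 and 0.20. The 22 blue points all lie below the horizontal line, but only 14 of them passed as lower with total reads too.

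Among the factors that form the preinitiation complex and choose the start codon, 4 of 11 tested were lower and none was higher. Those are 36.4% lower, where 23.5% of the 8873 genes were lower and 22.4% higher. EIF1, which keeps the scanning ribosome from starting at the wrong codon, had the largest fall of this group. Its level was 1359.9, 1351 and 1278 TMM-scaled RPKM in sh-luc replicates 1, 2 and 3, and 773, 959 and 988 in those of sh-IUR-5. Each sh-IUR-5 library lay below every sh-luc library, with a log2 fold change -0.55 ± 0.084 (SE), edgeR adjusted p = 5.69e-05, a fall of 31.8%. EIF5B, the GTPase that joins the large subunit, measured 184, 246 and 223 in sh-luc and 119.6, 163 and 172 in sh-IUR-5. The groups did not overlap although replicate 1 was the lowest library in both (log2 fold change -0.52 ± 0.11 (SE), edgeR adjusted p = 0.00143). EIF2S2, the beta subunit of eIF2, stood at 164, 185 and 165 in sh-luc and 107, 127 and 131 in sh-IUR-5, again without overlap (log2 fold change -0.49 ± 0.085 (SE), edgeR adjusted p = 0.000195). All 4 EIF2S2 rows were lower. EIF5, the activator of the GTPase of eIF2, differed less, from 145, 140.0 and 133 in sh-luc to 119, 119.5 and 122 in sh-IUR-5 (log2 fold change -0.22 ± 0.070 (SE), edgeR adjusted p = 0.0204).

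The other subunits of eIF2 did not move with EIF2S2. EIF2S1, the alpha subunit whose phosphorylation limits initiation under stress, measured 88.7, 126 and 117 in sh-luc and 93.1, 122 and 127 in sh-IUR-5, and the libraries intermingled (log2 fold change 0.04 ± 0.12 (SE), edgeR adjusted p = 0.805, 95% interval -0.19 to 0.27). The gamma subunit EIF2S3 had 308, 315 and 286 in sh-luc and 312, 331 and 353 in sh-IUR-5 (log2 fold change 0.13 ± 0.072 (SE), edgeR adjusted p = 0.155). Differences between the subunits were not tested against each other. EIF1AX, which binds the ribosomal A site during scanning, was at 211, 279 and 267 in sh-luc and 189, 256 and 257 in sh-IUR-5 and overlapped (log2 fold change -0.11 ± 0.11 (SE), edgeR adjusted p = 0.469). EIF1B, a close relative of EIF1, overlapped as well (log2 fold change -0.12 ± 0.090 (SE), edgeR adjusted p = 0.303). EIF2A and EIF2D, which have been linked to initiation without eIF2, had log2 fold changes of 0.19 and 0.25 with groups that did not overlap, and neither passed (edgeR adjusted p = 0.0851 and 0.0531), while both did with the series term (edgeR adjusted p = 0.0237 and 0.0111) and with their rows summed (0.19 and 0.20, edgeR adjusted p = 0.0467 and 0.0325). EIF1AD was at -0.12 on its most-read row, which held 13.7% of its reads (edgeR adjusted p = 0.636), but 2 of its 8 rows were lower, and the sum was at -0.41 (edgeR adjusted p = 0.00362).

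Of the 5 subunits of eIF2B, which reloads eIF2 with GTP, 1 was lower (20%, near the 23.5% of the 8873 genes). EIF2B3, the gamma subunit, was 30.3, 31.7 and 31.2 in sh-luc and 17.8, 24.2 and 23.4 in sh-IUR-5, with no overlap (log2 fold change -0.51 ± 0.10 (SE), edgeR adjusted p = 0.000690). Only this row of its 3 passed, and with the reads of all 3 rows summed the log2 fold change was -0.37 (edgeR adjusted p = 0.0132). The other subunits had log2 fold changes of -0.23 (EIF2B4), -0.08 (EIF2B2), -0.06 (EIF2B5) and 0.09 (EIF2B1). For EIF2B4 the most-read row did not pass (edgeR adjusted p = 0.0905), but 4 of its 8 rows were lower, and the summed reads gave -0.30 (edgeR adjusted p = 0.00445). With the series term the most-read row of EIF2B4 passed too (edgeR adjusted p = 0.0324).

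The eIF3 complex, the largest initiation factor and the scaffold between the small subunit and eIF4G, lay on 1 side: all 14 genes had log2 fold changes below 0, from -0.57 to -0.06 with a median of -0.20, 7 of them were lower by the test and none was higher. In 10 of the 14 the groups did not overlap, all of them lower. Of the 8873 genes 27.5% were lower without overlap, and 23.5% were lower by the test. With total reads, which shift all genes upward, the median of the 14 was 0.0004, 7 of the 14 were below 0, 3 were lower and EIF3H was higher. With TMM scaling and a minimum mean of 5 RPKM the median was -0.09, 13 of the 14 were below 0 and 3 were lower. With the series term, which raised the number of calls in the whole table, 12 of the 14 were lower, and all 14 were below 0 within each series. EIF3K, a small peripheral subunit, fell most, from 567, 560.1 and 536 in sh-luc to 329, 405 and 389 in sh-IUR-5. The lowest sh-luc library exceeded the highest sh-IUR-5 library (log2 fold change -0.57 ± 0.079 (SE), edgeR adjusted p = 2.50e-05), and all 3 rows of the gene were lower. EIF3G, the subunit that binds RNA and contacts eIF4B, was 454, 475 and 463 in sh-luc and 309, 346 and 343 in sh-IUR-5, well apart (log2 fold change -0.48 ± 0.070 (SE), edgeR adjusted p = 3.82e-05). EIF3F, a subunit with an MPN domain, was 303, 301 and 299 in sh-luc, where the libraries nearly coincided, and 221, 237 and 240.3 in sh-IUR-5 (log2 fold change -0.37 ± 0.068 (SE), edgeR adjusted p = 0.000375).

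A further 4 subunits passed with smaller differences or wider spread. EIF3J, a loosely attached subunit, was 81.2, 108 and 100.5 in sh-luc and 61.0, 83.7 and 81.6 in sh-IUR-5, and here the groups overlapped (log2 fold change -0.36 ± 0.11 (SE), edgeR adjusted p = 0.0188). EIF3M fell by 0.23 on the log2 scale, EIF3C by 0.22 and EIF3D, which can itself bind a cap, by 0.22 (edgeR adjusted p = 0.0250, 0.0190 and 0.0262). EIF3A and EIF3B, which nucleate the complex, had log2 fold changes of -0.15 and -0.15 and did not pass without the series term (edgeR adjusted p = 0.103 and 0.235) but did with it (edgeR adjusted p = 0.0239 and 0.0266). The p-values with that term carry the limit given above. The remaining uncalled subunits were EIF3CL (-0.19), EIF3E (-0.17), EIF3I (-0.15), EIF3L (-0.12) and EIF3H (-0.06), of which EIF3CL, EIF3E and EIF3I also passed with that term (edgeR adjusted p = 0.00553, 0.00931 and 0.0223). EIF3C and EIF3CL are near-identical neighbours on chromosome 16 (28688558 to 28735727 and 28379579 to 28403841, hg38), so reads could be split between them and their separate values are uncertain. Their ratio was 0.965, 0.963 and 0.931 in sh-luc and 0.946, 0.983 and 0.998 in sh-IUR-5, close to 1 in every library.

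The eIF4 factors held 3 of the 4 higher members, beside 3 lower ones, of 9 tested. That is 33.3% in each direction, where 22.4% of the 8873 genes were higher and 23.5% lower. EIF4G2 (chromosome 11, 10797050 to 10808940, minus strand, hg38) encodes an eIF4G relative, also called DAP5, that lacks the binding site for eIF4E and serves initiation without the cap-binding protein. It was 60.7, 74.7 and 72.2 in sh-luc and 92.7, 109.5 and 111 in sh-IUR-5. Every sh-IUR-5 library exceeded every sh-luc library, with a log2 fold change 0.59 ± 0.088 (SE), edgeR adjusted p = 4.62e-05, or 51.0% higher, and all 3 of its rows were higher. The canonical scaffold EIF4G1 had 6.62, 7.78 and 7.60 in sh-luc and 6.67, 7.97 and 8.18 in sh-IUR-5 on its most-read row, which held 13.2% of the gene's reads, and the groups overlapped (log2 fold change 0.05 ± 0.096 (SE), edgeR adjusted p = 0.704, 95% interval -0.14 to 0.24). The difference between the scaffolds was not itself tested.

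Of the helicases, EIF4A2 was higher and its paralog EIF4A1 lower. EIF4A2 was 122, 112 and 107 in sh-luc and 158, 135 and 139.8 in sh-IUR-5, without overlap (log2 fold change 0.34 ± 0.080 (SE), edgeR adjusted p = 0.00247). EIF4A1, the more abundant form, was 718, 786 and 739.7 in sh-luc and 524, 628 and 642 in sh-IUR-5, also without overlap (log2 fold change -0.32 ± 0.078 (SE), edgeR adjusted p = 0.00341). The other EIF4A1 row did not pass (log2 fold change -0.03, edgeR adjusted p = 0.753), while both rows summed gave -0.23 (edgeR adjusted p = 0.0325). With total reads the first row was at -0.12 and did not pass (edgeR adjusted p = 0.141). EIF4A1 overlaps the readthrough gene SENP3-EIF4A1, and reads of the shared exons cannot be assigned between them. EIF4A3, the helicase of the exon junction complex, measured 44.03, 51.3 and 49.6 in sh-luc and 43.6, 49.3 and 47.9 in sh-IUR-5 (log2 fold change -0.04 ± 0.084 (SE), edgeR adjusted p = 0.727). Helper proteins of the helicase followed EIF4A2 in sign: EIF4B was 215, 216 and 213 in sh-luc and 249, 237 and 243 in sh-IUR-5 (log2 fold change 0.18 ± 0.066 (SE), edgeR adjusted p = 0.0389), and EIF4H had a log2 fold change of 0.18 and did not pass (edgeR adjusted p = 0.0939, and 0.0140 with the series term). The call of EIF4B was lost with the DESeq2 test (DESeq2 adjusted p = 0.0530) and when all rows with any read were fitted (0.12, edgeR adjusted p = 0.311).

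**Figure D3:**
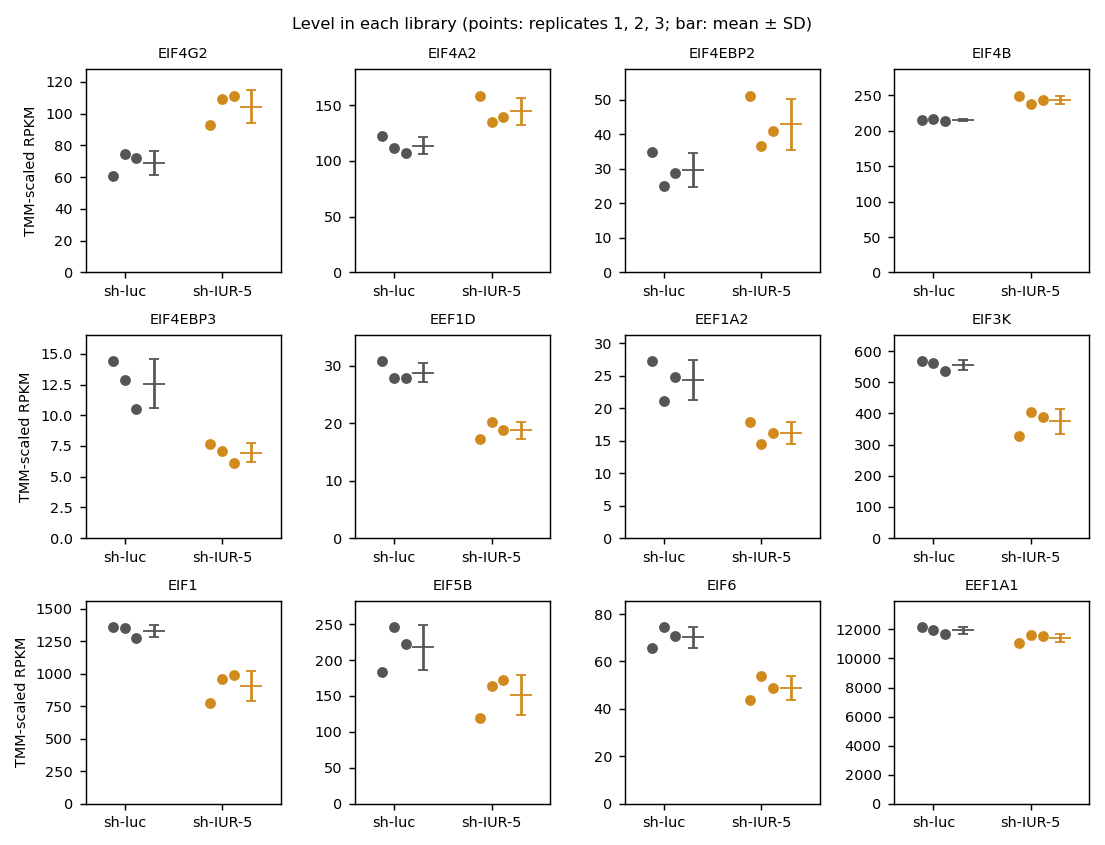
Level of 12 translation factors in each library as TMM-scaled RPKM on axes that start at 0, with 1 point per library (replicates 1, 2 and 3 from left to right) and the mean ± SD beside them. The 4 higher members form the top row, 7 of the lower members follow with no overlap between the groups, and EEF1A1 in the last panel has a fitted difference of -4.42%.

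EIF4E, the cap-binding protein, was the only member whose rows passed in both directions. Its most-read row, NP_001124151.1, was 36.8, 39.8 and 41.2 in sh-luc and 27.4, 34.5 and 33.7 in sh-IUR-5 (log2 fold change -0.31 ± 0.098 (SE), edgeR adjusted p = 0.0203). Row NP_001959.1 was 20.1, 23.1 and 22.4 in sh-luc and 26.2, 31.3 and 32.6 in sh-IUR-5, a log2 fold change of 0.45 (edgeR adjusted p = 0.00236). Row NP_001124150.1 was 16.5, 21.1 and 17.1 in sh-luc and 20.6, 24.5 and 24.4 in sh-IUR-5, with overlap, and rose by 0.35 on the log2 scale (edgeR adjusted p = 0.0197). Summed over the 3 rows, EIF4E had a log2 fold change of 0.07 (edgeR adjusted p = 0.570) and did not pass. How reads shared by the isoforms were assigned is not given in the sources used here, and its part in these values was not tested. EIF4E2, a cap-binding homologue linked to repression of translation, was 23.8, 21.8 and 23.3 in sh-luc and 17.3, 18.1 and 17.0 in sh-IUR-5 (log2 fold change -0.40 ± 0.093 (SE), edgeR adjusted p = 0.00270). Its 3 other rows did not pass (-0.15, -0.23 and -0.01), the sum of the 4 rows of EIF4E2 was at -0.27 (edgeR adjusted p = 0.0189), and with total reads the most-read row was at -0.19 and did not pass (edgeR adjusted p = 0.114).

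**Figure D4:**
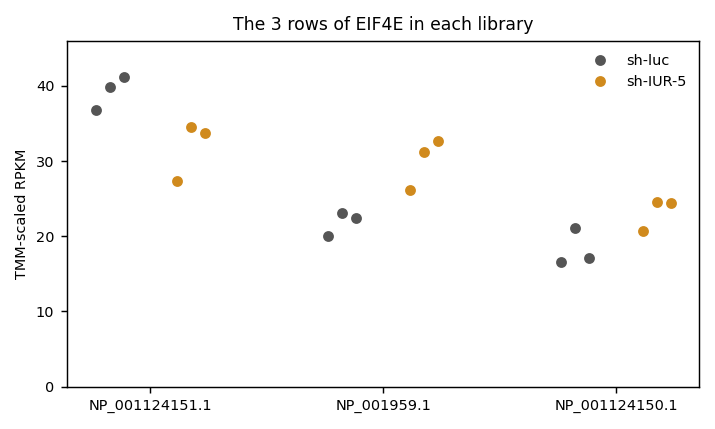
TMM-scaled RPKM of the 3 EIF4E protein accessions in each of the 6 libraries (grey sh-luc, orange sh-IUR-5, replicates 1 to 3 from left to right), on an axis from 0. The first accession, which has the most reads, is lower in sh-IUR-5, and the other 2 are higher, by 0.45 and 0.35 on the log2 scale.

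The 4E-BPs, which hold eIF4E away from eIF4G, diverged. EIF4EBP1 was 122, 139 and 149.9 in sh-luc and 97.6, 111 and 94.8 in sh-IUR-5, without overlap (log2 fold change -0.44 ± 0.093 (SE), edgeR adjusted p = 0.00119). EIF4EBP2 was 34.8, 25.1 and 28.7 in sh-luc and 51.1, 36.5 and 40.9 in sh-IUR-5, higher in every library (log2 fold change 0.54 ± 0.13 (SE), edgeR adjusted p = 0.00348). EIF4EBP3 was the scarcest of these, at 14.4, 12.9 and 10.5 in sh-luc and 7.67, 7.05 and 6.11 in sh-IUR-5. Its fall of 44.5% was the largest of all members (log2 fold change -0.85 ± 0.17 (SE), edgeR adjusted p = 0.000729), and it rested on 61 to 92 reads per library in sh-luc and 47 to 78 in sh-IUR-5. The gene (chromosome 5, 140547662 to 140549576, plus strand) lies inside the readthrough gene ANKHD1-EIF4EBP3 and overlaps SRA1 on the other strand, and neither the strand of the libraries nor the handling of shared reads is given in the sources used here. EIF4ENIF1, a transporter that carries eIF4E to the nucleus, was close to the level filter, with a log2 fold change of 0.19 (edgeR adjusted p = 0.327).

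EIF6, which keeps the large subunit from joining early, was 65.7, 74.5 and 70.6 in sh-luc and 43.7, 53.8 and 48.8 in sh-IUR-5, apart in every library (log2 fold change -0.53 ± 0.090 (SE), edgeR adjusted p = 0.000174), and all 4 of its rows were lower. EIF5A, the hypusine-containing factor that helps ribosomes past difficult peptide bonds, was 234, 276 and 305 in sh-luc and 219.5, 267 and 235 in sh-IUR-5, with overlap (log2 fold change -0.17 ± 0.094 (SE), edgeR adjusted p = 0.154, and 0.0180 with the series term). Its paralog EIF5A2 was much scarcer, at 8.10, 6.87 and 6.42 in sh-luc and 6.58, 7.51 and 7.16 in sh-IUR-5 (log2 fold change -0.02 ± 0.15 (SE), edgeR adjusted p = 0.933). EIF5AL1 is an intronless copy of EIF5A and shares its sequence, so its log2 fold change of -0.18 (edgeR adjusted p = 0.190, and 0.0424 with the series term) is uncertain.

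Among the elongation factors, all 3 subunits of eEF1B and EEF1A2 were lower, while the abundant EEF1A1 and EEF2 did not pass. EEF1D, the delta subunit, was 30.8, 27.9 and 27.8 in sh-luc and 17.3, 20.2 and 18.9 in sh-IUR-5 on its most-read row (log2 fold change -0.62 ± 0.085 (SE), edgeR adjusted p = 2.03e-05). That row held 9.51% of the gene's reads, and all 16 rows of EEF1D, which are not independent of each other, were lower, with -0.67 for their sum (edgeR adjusted p = 2.81e-05). EEF1B2, a subunit with exchange activity, was 513, 518 and 483 in sh-luc and 304, 379 and 367 in sh-IUR-5, a log2 fold change -0.53 ± 0.082 (SE), edgeR adjusted p = 6.73e-05. EEF1G, the gamma subunit, was 4339.9, 4122 and 3975 in sh-luc and 3105, 3310.2 and 3243 in sh-IUR-5, the second most abundant member, and again the groups were apart (log2 fold change -0.36 ± 0.064 (SE), edgeR adjusted p = 0.000218). EEF1A2, the form of eEF1A known from muscle and neurons, was 27.2, 21.0 and 24.7 in sh-luc and 17.9, 14.5 and 16.2 in sh-IUR-5 (log2 fold change -0.58 ± 0.10 (SE), edgeR adjusted p = 0.000270).

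EEF1A1 was the most abundant member by far, at 12158, 11969 and 11675 TMM-scaled RPKM in sh-luc and 11082, 11618 and 11520.3 in sh-IUR-5. The groups did not overlap, but the difference did not pass (log2 fold change -0.07 ± 0.059 (SE), edgeR adjusted p = 0.409, 95% interval -0.18 to 0.05). With total reads alone it turned to 0.14 and passed as higher (edgeR adjusted p = 0.00726), as its share of all reads went from 1.48 to 1.53% in sh-luc to 1.64 to 1.65% in sh-IUR-5. Counted over the most-read rows of all 58 members, that share was 3.26 to 3.28% and 3.40 to 3.44%, and without EEF1A1 it was 1.76 to 1.78% and 1.757 to 1.797%. EEF1A1 has 49 pseudogenes named after it in GENCODE 44, the most of any member, which makes its count depend on how reads with several matches were placed. EEF2 was 1724, 1679.9 and 1836 in sh-luc and 1876, 1822 and 1749.9 in sh-IUR-5, with overlap (log2 fold change 0.06 ± 0.064 (SE), edgeR adjusted p = 0.521, 95% interval -0.07 to 0.18). EEF1E1, an auxiliary subunit of the tRNA synthetase complex, had a log2 fold change of -0.07 (edgeR adjusted p = 0.490).

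Ratios of paralogs within a library do not depend on scaling, and 10 pairs were compared by exact permutation of the library labels (two-sided), which cannot give a p below 0.1 with 3 libraries a group. In 4 pairs the groups did not overlap, each with an exact p of 0.1 and 0.25 after Benjamini-Hochberg adjustment over the 10 pairs, so that none could pass. The ratio of EIF4EBP2 to EIF4EBP1 was 0.285, 0.181 and 0.191 in sh-luc and 0.524, 0.328 and 0.432 in sh-IUR-5, or 0.97 higher on the log2 scale. EIF4A2 relative to EIF4A1 was 0.17, 0.143 and 0.145 in sh-luc and 0.302, 0.215 and 0.218 in sh-IUR-5, higher by 0.67. For EIF1B relative to EIF1 the values were 0.0916, 0.099 and 0.101 in sh-luc and 0.135, 0.127 and 0.132 in sh-IUR-5, higher by 0.44. EEF1A2 relative to EEF1A1 went the other way, with a log2 difference of -0.52. The remaining 6 pairs overlapped. EIF4E2 relative to EIF4E differed by -0.09 on the most-read rows and by -0.34 with all rows summed.

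**Figure D5:**
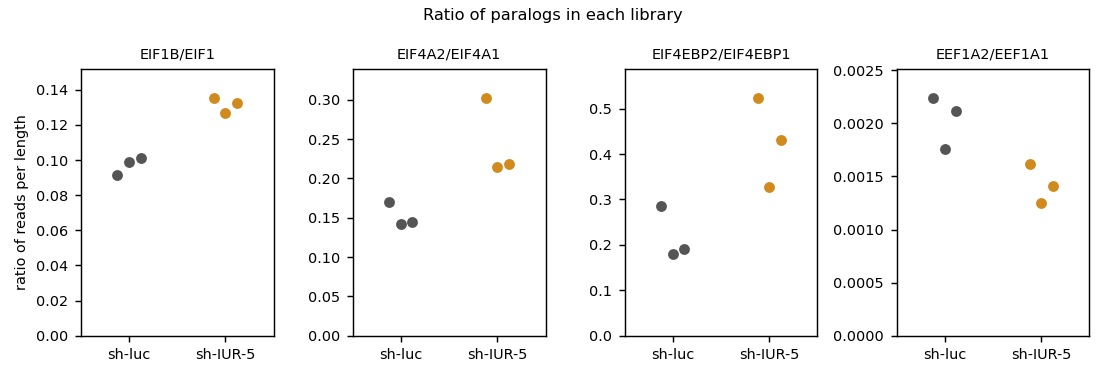
Ratio of the reads per length of 2 paralogs in each library (points, replicates 1 to 3 from left to right) on axes from 0, for the 4 of 10 pairs whose groups did not overlap. The first 3 ratios are higher in sh-IUR-5 libraries, by 0.44, 0.67 and 0.97 on the log2 scale, and EEF1A2/EEF1A1 is lower, with a log2 difference of -0.52.

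Isoform rows of a gene did not always agree, and as they appear to divide the same reads they are not independent measurements. Of 157 member rows tested, 64 were lower and 11 higher, where 18.1% and 19.2% of all rows were. Of the 15 called members with at least 2 tested rows, 9 had every tested row called in the same direction, and EIF4E had rows called in both. With reads summed over the rows of each gene, 24 members were lower and 6 higher. EIF1AD, EIF2B4 and EIF3CL were lower and EIF2A and EIF2D higher by their sums alone, and EIF4E lost its call. Since reads appear divided among the rows of a gene, the level of a single row understates genes with many isoforms: EEF1D measured 28.8 TMM-scaled RPKM in sh-luc on 1 row and 535 over all rows, and EIF4G1 7.33 and 57.6.

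Row length is the coding length here, and short rows were lower more often in the whole table. Of the most-read rows under 1000 bases, 35.8% were lower and 12.4% higher, and of those of at least 1000 bases 15.5% and 28.9%. Members under 1000 bases were lower in 10 of 22 and higher in 1, and members of at least 1000 bases were lower in 12 of 32 and higher in 3. Across the 54 members the log2 fold change had a Spearman's rho of 0.24 with row length, -0.19 with level in sh-luc and -0.23 with the GC content of transcripts, against 0.32, -0.45 and -0.32 over all genes; these describe genes of the same 6 libraries, which are not independent. With the length trend of each library removed, 28 members were lower, the 22 among them, and 4 higher, of which 3 were among the 4. That fit called 13174 rows in the whole table, against 14256 in the reported fit. Removing trends on both GC content and length gave 26 lower and 4 higher, of which 21 and 3 were called without it. In both fits EIF4H passed as higher and EIF4B did not (0.10 and 0.08, limma adjusted p = 0.259 and 0.221), and with both trends removed EIF4EBP1 was at -0.08 and did not pass either (limma adjusted p = 0.471). EEF1A1 passed as lower in that last fit (-0.17, limma adjusted p = 0.0432).

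Among the members, 12 are known 5′ TOP mRNAs, whose leaders begin with a pyrimidine tract and whose translation follows mTOR. Of these, EEF1B2, EEF1D, EEF1G and EIF3F were lower and EIF4B was higher, 4 and 1 of 12. Those are 33.3% and 8.33%, where 23.5% of the 8873 genes were lower and 22.4% higher. The other 42 tested members had 18 lower and 3 higher, with medians of -0.11 for the first set and -0.18 for the second.

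Each call was repeated with 1 library left out. Of the 22 lower members 16 stayed lower in all 6 fits, and of the 4 higher members EIF4G2, EIF4A2 and EIF4EBP2 stayed higher. EIF4B passed only without sh-IUR-5 replicate 1, and its edgeR adjusted p was 0.0675 without sh-IUR-5 replicate 2, 0.119 without sh-IUR-5 replicate 3, and 0.0886, 0.0955 and 0.115 without sh-luc replicates 1, 2 and 3. Of the lower members, EIF5 lost its call without sh-luc replicates 1 and 2 and sh-IUR-5 replicates 2 and 3 (edgeR adjusted p from 0.0546 to 0.0793). EIF3D, EIF3J, EIF3M and EIF4E lost theirs without sh-IUR-5 replicate 1 (log2 fold changes of -0.15, -0.22, -0.16 and -0.20) and without sh-luc replicates 2 and 3, with edgeR adjusted p from 0.0521 to 0.122. EIF3C lost its call without sh-luc replicates 2 and 3 and sh-IUR-5 replicate 3 (edgeR adjusted p from 0.0567 to 0.0708). Replicate 1 differed most from its own group, with a chi-square per row of 2.94 to 4.78 in pairs that include it and 1.52 to 1.90 between replicates 2 and 3. With replicates 2 and 3 only, 24 members were lower and 8 higher, and 13460 rows were called in the whole table, against 14256 with all libraries.

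The 4 members under a mean of 1 RPKM were not tested. EIF4G3, a relative of EIF4G1, had 8, 11 and 6 reads in sh-luc and 24, 14 and 13 in sh-IUR-5 on its most-read row. EIF4E3, a cap-binding homologue, had 1, 0 and 2 reads in sh-luc and 5, 3 and 3 in sh-IUR-5, and EIF4E1B, a form known from oocytes, had 0, 0 and 2 against 1, 0 and 0. A count of 0 allows up to 3 reads, so no fold is given for these. EIF1AY, the counterpart of EIF1AX, had 5 to 15 reads in the 6 libraries.

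Of 47 other genes of the pathway, in 6 lists, 46 were tested, with 13 higher and 9 lower, against the 22.4% and 23.5% of all genes given above. With total reads 20 were higher and 2 lower, where 39.3% of the 8873 genes were higher and 12% lower. Counts in the lists below are with TMM scaling and stand against 22.4% higher and 23.5% lower. Regulators of eIF2 were higher or did not pass: EIF2AK3, the stress kinase PERK, was 0.792, 1.20 and 0.839 in sh-luc and 1.51, 1.52 and 1.57 in sh-IUR-5 (log2 fold change 0.71 ± 0.15 (SE), edgeR adjusted p = 0.00156), PPP1R15B, a phosphatase subunit for eIF2 alpha, had a log2 fold change of 0.70 and EIF2AK1, the heme-regulated kinase, one of 0.39 (edgeR adjusted p = 0.000445 and 0.000392). Before TMM scaling EIF2AK3 was at 0.717, 1.08 and 0.767 RPKM in sh-luc replicates 1, 2 and 3, on 54 to 77 reads. It reached the filter of a mean of 1 RPKM only through the sh-IUR-5 libraries. EIF2AK2, EIF2AK4 and PPP1R15A did not pass. Of these, EIF2AK2 was higher without overlap (log2 fold change 0.25, edgeR adjusted p = 0.106). PPP1R15A went the other way, also without overlap. It was 92.5, 73.6 and 73.9 in sh-luc and 71.3, 69.6 and 70.5 in sh-IUR-5 (log2 fold change -0.18, edgeR adjusted p = 0.09995). Of 8 genes around mTOR and the MNK kinases 4 were higher and 2 lower. MTOR, LARP1 and RPTOR were higher by 0.53, 0.53 and 0.39 on the log2 scale (edgeR adjusted p = 0.000332, 0.00288 and 0.00855), although RPTOR lost its call without sh-luc replicate 2 (0.32, edgeR adjusted p = 0.0521). MKNK1, a kinase of eIF4E, was 89.8, 83.6 and 79.7 in sh-luc and 42.9, 45.2 and 45.8 in sh-IUR-5 on its most-read row (log2 fold change -0.92 ± 0.077 (SE), edgeR adjusted p = 1.80e-07), and its 4 other rows, at 1.10 to 2.21 RPKM, did not pass.

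Termination and recycling genes had 3 higher and 1 lower of 5 tested, and GSPT2 had no reads. ABCE1, which splits ribosomes after termination, was 17.3, 24.1 and 21.6 in sh-luc and 26.7, 31.9 and 33.2 in sh-IUR-5 (log2 fold change 0.54 ± 0.11 (SE), edgeR adjusted p = 0.000759). ETF1, the release factor eRF1, and GSPT1, its GTPase partner eRF3, had log2 fold changes of 0.51 and 0.24, and MCTS1, a reinitiation factor, of -0.37 (edgeR adjusted p = 0.000206, 0.0273 and 0.00330). GSPT1 kept its call in 2 of the 6 fits that leave out a library, failing without sh-luc replicates 1 and 3 and sh-IUR-5 replicates 2 and 3 (edgeR adjusted p from 0.0884 to 0.137). Mitochondrial and selenocysteine factors had 3 lower and 1 higher of 7. TUFM, the mitochondrial counterpart of eEF1A, was 214, 204 and 196 in sh-luc and 158, 172 and 163 in sh-IUR-5 (log2 fold change -0.32 ± 0.071 (SE), edgeR adjusted p = 0.00180), and its exchange factor TSFM had a log2 fold change of -0.35 (edgeR adjusted p = 0.00939, and 0.0580 without sh-luc replicate 2). GFM2, a mitochondrial recycling factor, had -0.64 on its most-read row (edgeR adjusted p = 6.50e-06), while 3 of its 5 other rows were higher and the sum of its rows was at -0.24 (edgeR adjusted p = 0.0176). GFM1 was at 0.37 with overlapping groups (edgeR adjusted p = 0.0250), and did not pass without sh-luc replicate 1 or sh-IUR-5 replicates 2 or 3 (0.24, 0.30 and 0.31).

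Poly(A)-binding proteins and their partners had 1 higher of 5, PAIP2, an inhibitor of PABP, with a log2 fold change of 0.31 (edgeR adjusted p = 0.0147), which did not pass without sh-luc replicates 2 or 3 or sh-IUR-5 replicate 2 (edgeR adjusted p from 0.0526 to 0.0889). Of 15 enzymes that modify elongation factors, 1 was higher and 3 lower. EEF1AKMT2, a methyltransferase of eEF1A, was 28.8, 26.7 and 27.6 in sh-luc and 19.9, 21.4 and 23.1 in sh-IUR-5 (log2 fold change -0.37 ± 0.092 (SE), edgeR adjusted p = 0.00379) and stayed lower in all 6 fits without a library. EEF1AKMT1 and EEF1AKMT4 passed narrowly (edgeR adjusted p = 0.0490 and 0.0356) and kept that call only without sh-IUR-5 replicate 2, with edgeR adjusted p from 0.0545 to 0.236 otherwise. EEF2K, the kinase that inactivates eEF2, was at 0.32 (edgeR adjusted p = 0.0428) and passed in none of those 6 fits (0.0624 to 0.117).

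Promoters were examined for letters shared by members, using RefSeq windows of GRCh38.p14 for the 250 bases before each start, in 64 windows of 48 of the 58 members, on both strands. The E-box CACGTG, a hexamer that MYC and related factors bind, was in 22.9% of the 48 members (11 genes) and in 11.5% of 7359 tested genes with a window. It was in 5 of the 17 lower members with a window, in 1 of the 4 higher and in 5 of the 23 that did not pass. The STAT motif TTCNNNGAA was in EIF4E, EIF4EBP3 and EIF3I, 6.25% of the members against 6.86% of the tested genes, and the box TATAAA in EEF2, EIF4A2 and EIF4EBP3, 6.25% against 7.27%. The SP1 motif GGGCGG was in 77.1% and 75.1%, and the ETS motif CCGGAAG, whose letters can overlap the STAT motif, in 18.75% and 21.96%. A match describes these letters only. The following stretches, given in the sense of each gene and ending at the base before its start, come from members with opposite calls. Capitals mark the E-box in EIF4E, EIF4EBP3 and EIF4B, the STAT motif in EIF4E and EIF4EBP3, and the box TATAAA in EIF4A2:
EIF4E, chr4:98929134-98929283, minus strand, lower on its most-read row: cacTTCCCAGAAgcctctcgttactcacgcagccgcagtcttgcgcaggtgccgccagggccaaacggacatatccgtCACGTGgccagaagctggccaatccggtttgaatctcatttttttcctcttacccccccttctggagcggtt
EIF4EBP3, chr5:140547532-140547661, plus strand, lower: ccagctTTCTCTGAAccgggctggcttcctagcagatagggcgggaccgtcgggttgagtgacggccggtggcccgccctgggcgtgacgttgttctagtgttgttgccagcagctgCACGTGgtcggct
EIF4B, chr12:53006426-53006455, plus strand, higher: gctataatCACGTGattgcctcatccgggt
EIF4A2, chr3:186783547-186783576, plus strand, higher: TATAAAaaacgggtggttgggcgccgctgt
The E-box of EIF4EBP3 began 13 bases before the start and that of EIF4B 22 bases before it, so the hexamer stood close to the start of a lower and of a higher member.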

How the data were processed

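Reads of 6 K562 RNA-seq libraries, 3 sh-IUR-5 and 3 sh-luc, were compared. The labels name the knocked-down lncRNA differently from the study, which states that these libraries are its lncRNA-IUR-5 knockdown, and the group was named accordingly. Per the submitters' processing notes, CASAVA 1.8, Trimmomatic 0.32, Bowtie2 2.1.0 and SAMtools 0.1.19 were used with hg38; the study's methods give base calling to CASAVA, describe trimming and mapping without naming the programs, and give the RPKM step to SAMtools, while the counting program, the strand of the libraries and the rule for reads shared by isoforms are not given in the sources used here. The authors deposited raw read counts per RefSeq protein accession, without normalization, and RPKM made from those counts by row length and total reads. The other deposited table holds the authors' own comparison (pooled counts and RPKM, fold changes, p-values and q-values) and was not used.

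Rows were matched to gene symbols by accession without version (64.7% of rows and 69.2% of tested rows, RefSeq list of GRCh38.p14). Counts of rows with a mean RPKM of at least 1 were fitted by the quasi-likelihood method of edgeR 4.0.16 in R 4.3.3 after TMM scaling (two-sided, no block), and p-values were adjusted by Benjamini-Hochberg over all 38204 rows with a threshold of 0.05. The biological coefficient of variation was 8.05%. The depth of 21023739 to 31481109 reads limits precision for members with few reads. Paralog ratios were compared by exact permutation over libraries. Coordinates are from GENCODE 44 on hg38. Alternatives used DESeq2 1.42.0, limma 3.58.1 and mgcv 1.9.3, and the fit was tested on simulated counts with known changes.

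The members and the gene lists were chosen with earlier results of these data known. Members named in the text were to be the 12 largest rises and 12 largest falls past the threshold, 8 central factors whatever their values, both members of listed paralog pairs, members under the filter and up to 4 genes per list of other pathway genes; the other members were named after their values were seen, so that each is accounted for. Of the 12 listed paralog pairs 10 were compared, as a pair needed at least 3 reads of each gene in every library. EIF2S3B had no row, and EIF4E3 had 1, 0 and 2 reads in sh-luc.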

Additional observations from a re-analysis of the deposited data

How the results depend on the processing

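In the reported fit, 14256 rows were called in the whole table, and 22 members were lower and 4 higher. Scaling to total reads only gave 14 members lower and 14 higher, and 20 other pathway genes higher and 2 lower. Of the 8873 genes 39.3% were higher and 12% lower with that scaling. Limma on log2(RPKM + 0.1) and on log2(RPKM + 1), which share that scaling, both gave 13 members lower and 11 higher and 2 other pathway genes lower. Under these 3 settings EEF1A1 turned to higher, with log2 fold changes of 0.14, 0.13 and 0.13 (adjusted p = 0.00726, 0.0375 and 0.0270), and with total reads EIF3H did so with 0.15 (edgeR adjusted p = 0.0319). A minimum mean of 5 RPKM left 16092 rows, of which 7356 were called. It gave 16 members lower and 9 higher of 52 tested, and 5 other pathway genes lower of 28 tested. The median log2 fold change of the members was then -0.06. Summing the rows of a gene turned EIF4E to 0.069 (edgeR adjusted p = 0.570). Removing the length trend gave 8 other pathway genes higher. For fits with 1 row or 1 sum per gene no count of called rows exists.

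Replicate numbers did not pair the libraries: the correlation of deviations from the group means was 0.31, 0.09 and -0.01 for replicates 1, 2 and 3, and only replicate 1 of sh-IUR-5 and of sh-luc correlated best with the same number in both directions. With a replicate block 7 members were higher and 26 lower and 16831 rows were called. A term for the series read from the labels gave 7 members higher and 30 lower, with 17924 rows called. With replicates 2 and 3 only, an alternative chosen after seeing the data as were limma on log2 CPM and the removal of GC trends, 8 members were higher.

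When 1 library was left out, 11215 to 13582 rows were called, 16 to 22 members were lower and 3 to 6 higher, and 6 to 9 other pathway genes were lower and 9 to 13 higher. The cause of these changes was not tested. Members with few reads, such as EIF4E1B, could not be compared at this depth.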
